A study of Mus musculus with 8 samples.

Results

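High-dose was compared with medium-dose DWYG in mouse liver: the 2 libraries of the DWYG-H group were set against the 2 libraries of the DWYG-M group, which makes 4 of the 8 libraries of the series. The genes described are the 11606 of 17164 in the deposited table whose FPKM (fragments scaled to gene length and library size) was at least 1 in 2 or more of the 8 libraries. DWYG is Diwu Yanggan, a Chinese herbal preparation given for liver disease. The mice were male C57BL/6, 24 in all and 6 a group, and 2 livers of each group, drawn at random, were sequenced. All 4 libraries compared came from mice that also carried the chemical tumour model: diethylnitrosamine (DEN, 0.67%) injected at 2 weeks of age, followed from 8 weeks onwards by carbon tetrachloride (CCl4, 20%, dissolved in olive oil). DWYG-M mice took 1 clinical equivalent dose and DWYG-H mice 2 such doses, from 17 weeks until all mice were killed at 22 weeks. The 2 control livers came from saline-treated mice, and the 2 model livers from mice given DEN and CCl4 without DWYG. CCl4 went on during the DWYG treatment, so each dose was read in livers still under injury.

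DEN is activated by cytochrome P450 enzymes to a mutagen, and repeated CCl4 kills hepatocytes, draws in macrophages and leaves scar. An injured male liver loses much of its sex-biased programme, a set of enzymes, transporters and secreted urinary proteins that pulsatile growth hormone maintains through STAT5B. Macrophages that settle in scarred liver take up lipid and carry genes such as Gpnmb, Trem2 and Mmp12. The liver also keeps a circadian clock, in which BMAL1 and CLOCK drive the REV-ERB, PER and CRY repressors, and transcripts of this loop vary over the day.

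The 4 DWYG libraries held between 17345627 and 18594473 estimated counts each and between 10979 and 11173 genes at an FPKM of 1 or more. Hepatocyte markers were high in all of them (Alb, the albumin gene, between 35882 and 54658 FPKM), as the liver label requires. The livers of a dose were no closer to each other than to livers of the other dose. Across genes, the correlation of log2 levels was 0.981 between the DWYG-M livers and 0.978 between the DWYG-H livers, and between 0.979 and 0.987 for the 4 pairs across doses. The DWYG-M livers differed 2-fold or more in 387 genes (3.33%) and the DWYG-H livers in 390 (3.36%), while the 4 pairs of livers across doses differed that much in 200 to 479 genes (1.72% to 4.13%). Whole liver was sequenced, so fewer cells of a type and less RNA per cell cannot be told apart in any value given here.

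No gene passed the test between the doses. With edgeR's quasi-likelihood test and Benjamini-Hochberg adjustment over all genes, 0 of 11606 (0%) had an adjusted p under 0.05. The unadjusted p was under 0.05 in 193 genes (1.66%), of which 133 (1.15%) were higher and 60 (0.517%) lower in DWYG-H. Each limma fit also called 0, and DESeq2 called 5: Cyp4a12a, Cyp4a12b and Hsd3b5, lower in DWYG-H, and Mmp12 and Xlr3a, higher. Without DWYG-H 1, edgeR called 2 genes, Cxcl9 and Ubd. The unadjusted 95% interval around a gene's log2 fold change reached a median of 0.50 to either side, or 1.41-fold. With 2 livers a dose, smaller differences were thus mostly not detectable even before adjustment. After adjustment far larger ones were not called, such as that of Cyp4a12a (log2 fold change -1.40, edgeR adjusted p = 0.534). Both DWYG-H livers lay above both DWYG-M livers in 1522 genes (13.1%) and below both in 1562 (13.5%), or in 3084 either way (26.6%). The point estimate was higher in DWYG-H in 5752 genes (49.6%) and lower in 5851. The counts of such members below are read against these shares. The same model called 2582 genes (22.2%) between model and control.

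**Figure D1:**
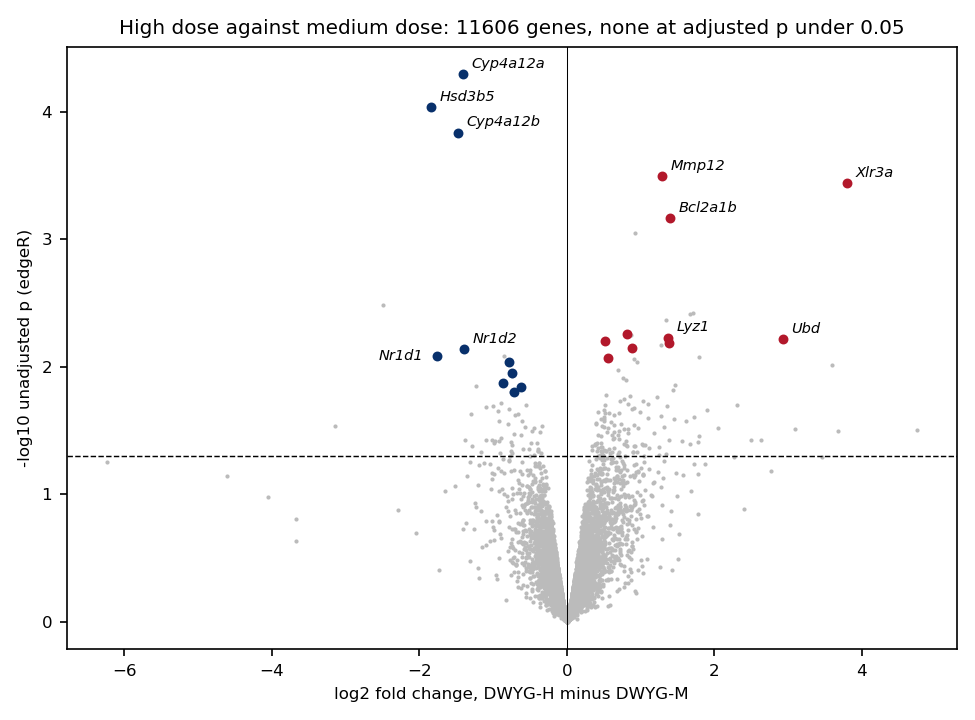
Log2 fold change of each of 11606 genes between the high and the medium dose (x axis, positive where DWYG-H was higher) against the -log10 of its unadjusted p from edgeR (y axis). The dashed line marks an unadjusted p of 0.05, red and blue points are the 10 higher and 10 lower genes of smallest p with a mean of at least 5 FPKM at either dose and no overlap of the doses, and none of them passed after adjustment.

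The lower end of the comparison was led by enzymes of the male liver. Cyp4a12a and Cyp4a12b encode fatty acid omega-hydroxylases of male mouse liver and kidney, and Hsd3b5 a male-specific steroid reductase. Cyp4a12a stood at 103 and 80.3 FPKM in the DWYG-M livers and at 33.1 and 36.1 in the DWYG-H livers. The model livers had 33.9 and 34.1 and the controls 147 and 140. Both DWYG-H livers were thus at the level of the model, and both DWYG-M livers between model and control. The log2 fold change of Cyp4a12a (DWYG-H minus DWYG-M, as throughout) was -1.40 ± 0.18 (SE, n = 2 a dose; edgeR adjusted p = 0.534).

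Cyp4a12b had 55.9 and 62.6 FPKM in DWYG-M against 18.3 and 24.4 in DWYG-H, with 30.1 and 18.9 in the model and 48.5 and 53.7 in the controls. Here the DWYG-M livers lay above both control livers and the DWYG-H livers within or below the range of the model (log2 fold change -1.47 ± 0.22, adjusted p = 0.56). The paralogs Cyp4a12a and Cyp4a12b are nearly identical, so reads may have been shared out between them and the separate levels are uncertain. Hsd3b5 had 12.2 and 16 FPKM in DWYG-M against 3.34 and 4.49 in DWYG-H. All 4 livers were above the model (0.86 and 0.45) and far below the controls (241 and 171). Its log2 fold change was -1.84 ± 0.26 (adjusted p = 0.534), with the caveat that it belongs to a family of close copies. Over the alternative settings the 3 values ranged from -1.57 to -1.22, from -1.68 to -1.30 and from -2.06 to -1.62, in that order.

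**Figure D2:**
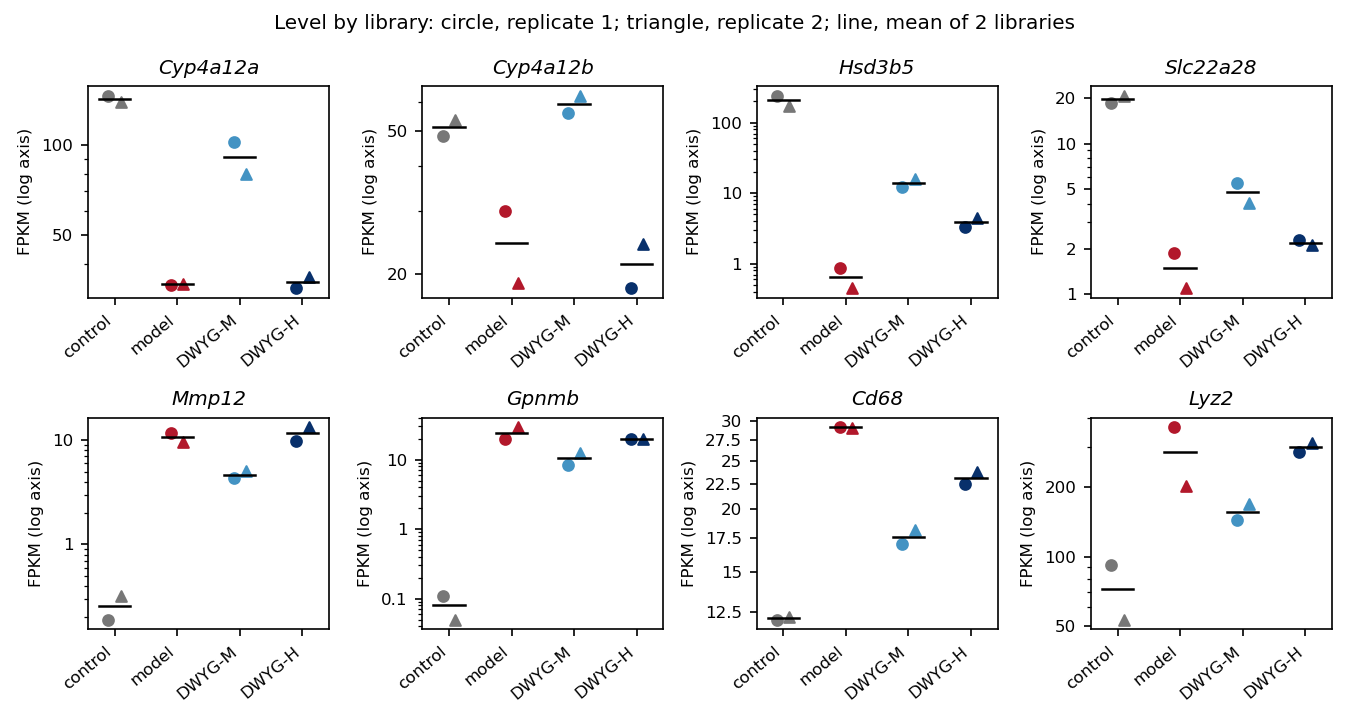
FPKM on a log axis in each library of the 4 groups for 4 genes with lower and 4 with higher values in DWYG-H than in DWYG-M; circles are replicate 1, triangles replicate 2 and lines the mean of both libraries. In each panel both DWYG-H libraries lie on one side of both DWYG-M libraries, as for Cyp4a12a (33.1 and 36.1 against 103 and 80.3).

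Of 34 tested male-biased genes, 0 passed the test, 29 had a lower and 5 a higher point estimate in DWYG-H, and 13 were below both DWYG-M livers in both DWYG-H livers. The median log2 fold change of the list was -0.33, beside -0.002 over all genes. Slc22a28, an organic anion transporter gene, had 5.44 and 4.05 FPKM in DWYG-M against 2.29 and 2.12 in DWYG-H. Slco1a1, a transporter for bile acids and steroid conjugates, had 39.3 in both DWYG-M livers against 18.8 and 22.7. Ugt2b38, a glucuronosyltransferase gene, had 2.67 and 5.04 against 2.45 and 1.43. These 3 genes and those named above were the 6 members with an unadjusted p under 0.05, all lower in DWYG-H.

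The Mup genes encode major urinary proteins, pheromone carriers made by the male liver. Mup1 had 184 and 400 FPKM in DWYG-M against 118 and 138 in DWYG-H, beside 5569 and 5674 in the controls. Mup8, which is not on the list, had 13.7 and 12.9 against 7.25 and 9.03 (log2 fold change -0.71 ± 0.23, adjusted p = 1). Mup genes are near-identical copies, so their separate levels are uncertain. DWYG-M 2 was the highest of the 4 DWYG livers in 24 of the 34 male-biased genes, beside 26.7% of all genes. Without DWYG-M 2 the median of the list was 0.005. Without DWYG-M 1 it was -0.58. Serpina1e, an alpha-1-antitrypsin gene with close copies, was the 1 member above in both DWYG-H livers, with 4061 and 3396 FPKM in DWYG-M against 5884 and 5196 in DWYG-H. The 20 tested female-biased genes had a median of 0.03 (0.55 without DWYG-M 1), with 3 above and 1 below in both DWYG-H livers.

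Among other enzymes of drug and steroid metabolism, the P450 genes had a lower median in DWYG-H that depended on single livers. Of 40 further cytochrome P450 genes, 33 had a lower point estimate in DWYG-H (median -0.25), 9 were below and 2 above in both livers, and 0 passed. The median was -0.09 without DWYG-M 2 and -0.11 without DWYG-H 1. Cyp2c67 had 116 and 81.7 FPKM in DWYG-M against 54.3 and 62.7 in DWYG-H (log2 fold change -0.75 ± 0.23, adjusted p = 1). Cyp2c23, an arachidonic acid epoxygenase gene, had 169 and 221 against 128 and 147. Of 41 conjugating enzymes (UGT, SULT and GST), 35 had a lower point estimate (median -0.13, and -0.04 without DWYG-M 2), with 5 below and 1 above in both livers, a share below near that of all genes. Ugt1a9 had 41.1 and 68.1 FPKM in DWYG-M against 26.7 and 28.5 in DWYG-H, and its level is uncertain because the Ugt1a genes share exons.

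Hsd17b6, which converts androgens and retinol, had 101 and 115 FPKM in DWYG-M against 67.1 and 57.2 in DWYG-H. Nr0b2 encodes SHP, the bile acid-induced repressor of bile acid synthesis. It had 38.5 and 40.2 in DWYG-M, above both controls (34.9 and 22.6), and 27.4 and 15.8 in DWYG-H. The log2 fold changes were -0.79 ± 0.23 for Hsd17b6 and -0.86 ± 0.27 for Nr0b2, both with an adjusted p of 1. Over the 33 genes of bile acid synthesis and transport 4 were below and 1 above in both livers, the former near the share of all genes, and the median was -0.12 (-0.05 without DWYG-M 2). DWYG-M 2 was highest in 22 of the 40 P450 genes and in 26 of the 41 conjugating enzymes, and DWYG-H 1 was lowest in 26 and 19 of them. Over all genes, DWYG-M 2 was highest in 26.7% and DWYG-H 1 lowest in 29.5%.

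Macrophage genes stood on the higher side. Mmp12 encodes macrophage elastase, which degrades elastin in scar. It had 4.32 and 5.04 FPKM in the DWYG-M livers and 9.87 and 13.4 in the DWYG-H livers, while the model had 11.7 and 9.65 and the controls 0.19 and 0.32. The DWYG-H livers lay within or above the range of the model and the DWYG-M livers below it (log2 fold change 1.29 ± 0.21, adjusted p = 0.835, 1.05 to 1.50 over the alternative settings). Gpnmb, a lysosomal glycoprotein gene of lipid-laden macrophages, had 8.32 and 12.5 against 19.9 and 19.7, with 19.8 and 29.4 in the model. Its log2 fold change was 0.91 ± 0.26 (adjusted p = 1).

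Of 26 genes of lipid-associated scar macrophages, 22 had a higher point estimate in DWYG-H, 13 were above and 0 below the DWYG-M livers in both DWYG-H livers, and 0 passed the test. The median was 0.29, between 0.22 and 0.31 in every setting tried, including those that left out any 1 library. Besides Mmp12 and Gpnmb, an unadjusted p under 0.05 was seen for Cd68, Itgax and Lpl, and these were higher. Cd68, a lysosomal marker of all macrophages, had 17.1 and 18.2 FPKM in DWYG-M against 22.5 and 23.8 in DWYG-H. Lpl, the lipoprotein lipase gene, had 32.8 and 24.2 against 44 and 53.6. Itgax, which encodes CD11c, had 0.91 and 1.07 against 1.2 and 3.83, and its log2 fold change of 1.32 was 0.29 without DWYG-H 2.

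Spp1 (osteopontin) had 212 and 175 FPKM in DWYG-M against 229 and 268 in DWYG-H, below both model livers (293 and 430). Lgals3 (galectin-3) had 13.5 and 12.4 against 15.9 and 21.1. Trem2, the lipid-sensing receptor of these cells, had 5.37 and 6.61 against 8.63 and 6.69, a difference only slightly larger than its SE (log2 fold change 0.36 ± 0.29). Lysozyme and a BCL2 relative of myeloid cells followed the same order. Lyz2 had 144 and 169 FPKM in DWYG-M against 285 and 314 in DWYG-H (0.95 ± 0.28), and Lyz1, its near-identical neighbour, 6.24 and 6.5 against 14.5 and 18.4. Bcl2a1b had 5.07 and 3.89 against 10.8 and 12.8, with 14.6 and 12 in the model (1.40 ± 0.26, adjusted p = 1), and is 1 of several copies that reads may not separate.

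Adam8, a metalloprotease gene of myeloid cells, had 0.76 and 0.6 FPKM in DWYG-M against 1.24 and 2.06 in DWYG-H. Among genes of resident Kupffer cells, Clec4f, their defining lectin, overlapped between the doses with 51.2 and 47.8 in DWYG-M against 48.7 and 42.5 in DWYG-H. Timd4 had 1.99 and 1.38 against 2.21 and 2.35. Timd4 is another marker of these cells, and over 21 tested Kupffer cell genes the median was 0.15 (0.006 without DWYG-H 1), with 10 above and 2 below in both livers, among them C1qc with 75 and 72.5 against 89.2 and 87.7. The share of macrophages in each liver was not measured, and its part in these values was not tested.

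The promoter of Mmp12 is shown because the gene led the higher side. It is the 250 bases before an annotated start, at chr9:7347124-7347373 on the + strand of GRCm38.p6, from RefSeq. Capitals mark matches to AGGTCA (read here on the other strand, TGACCT) and to the AP-1 motif TGANTCA, each searched on both strands.
Mmp12: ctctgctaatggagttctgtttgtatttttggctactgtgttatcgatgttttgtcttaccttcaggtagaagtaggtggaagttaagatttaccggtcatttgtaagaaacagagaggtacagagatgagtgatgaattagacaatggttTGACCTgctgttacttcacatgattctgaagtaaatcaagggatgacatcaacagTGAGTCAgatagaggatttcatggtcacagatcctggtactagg
Of 32851 RefSeq promoters of this length, 6.75% held TGANTCA and 14% held AGGTCA. The entry for another Mmp12 start (chr9:7344147-7344396) held neither of these, but held TTAGGTAA, a match to TTANGTAA, which 2.06% of all promoters held. A match describes the letters only. Promoter entries were found for 15 of the 20 genes chosen by smallest p.

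Clock genes gave differences in both directions. The labels give no time of day of liver collection, and its part in these values was not tested. Nr1d1 and Nr1d2 encode REV-ERB alpha and beta, which repress Arntl, the gene of BMAL1. Nr1d1 had 10.1 and 31.6 FPKM in the DWYG-M livers and 5.6 and 6.75 in the DWYG-H livers. Both DWYG-H values were also below the model (17.2 and 22.4) and the controls (20.8 and 30.6). Its log2 fold change was -1.76 ± 0.50 (adjusted p = 1), and -0.70 without DWYG-M 2. Nr1d2 had 14.3 and 23.7 against 9.78 and 4.64 (-1.39 ± 0.39), and every DWYG-H value was below those of the other 6 livers. Dbp, an output activator that binds D-boxes, had 7.02 and 31.1 against 2.59 and 1.63, a log2 fold change of -3.15 ± 1.19, and -1.66 without DWYG-M 2.

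Tef, a relative of Dbp, had 12.3 and 27.4 FPKM in DWYG-M against 9.7 and 6.46 in DWYG-H. Per3, a period gene, had 0.75 and 1.82 against 0.53 and 0.37, and Ciart, a repressor of the clock, 0.87 and 1.57 against 0.73 and 0.25. Several genes that REV-ERB represses stood on the other side, and the part of Nr1d1 and Nr1d2 in their values was not tested. Arntl had 9.63 and 5.65 in DWYG-M against 14.8 and 14.4 in DWYG-H (log2 fold change 0.96 ± 0.51). Npas2, the CLOCK paralog, had 2.34 and 0.75 against 3.35 and 3.91. Cry1, a repressor, had 6.18 and 3.49 against 7.81 and 12.9 (1.09 ± 0.37). Nfil3, which competes with Dbp for D-boxes, had 14.5 and 14.8 against 25.1 and 33.8. Clock overlapped between the doses, with 7.08 and 6.04 against 7.91 and 6.38. Per2 was lower in DWYG-H, with 2.13 and 2.23 against 1.69 and 1.63. So was Usp2, a deubiquitinase gene under clock control, with 2.58 and 2.48 against 1.97 and 0.97.

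Among the 24 tested clock genes, 0 passed, 5 were above and 10 below in both DWYG-H livers, and the median was -0.04 (-0.21 without DWYG-H 1). An unadjusted p under 0.05 was seen for 4 lower genes (Nr1d2, Nr1d1, Tef and Dbp) and 2 higher ones, among them Cry1. The livers of 1 group often differed as much as the doses. Dbp differed 4.43-fold between the DWYG-M livers, 4.32-fold between the controls and 6.95-fold between the model livers, but 1.59-fold between the DWYG-H livers. Per1 differed 7.95-fold between the DWYG-H livers (6.68 and 0.84 FPKM) and 4.74-fold between the DWYG-M livers (4.93 and 1.04), so no difference between doses could be read for it. Clock and Csnk1d differed between livers of a dose by at most 1.24-fold and 1.04-fold. DWYG-M 2 held the highest value of the 4 livers in 9 of the 24 genes (37.5%) and DWYG-H 2 the lowest in 10 (41.7%). Over all genes these shares were 26.7% and 22.4%.

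**Figure D3:**
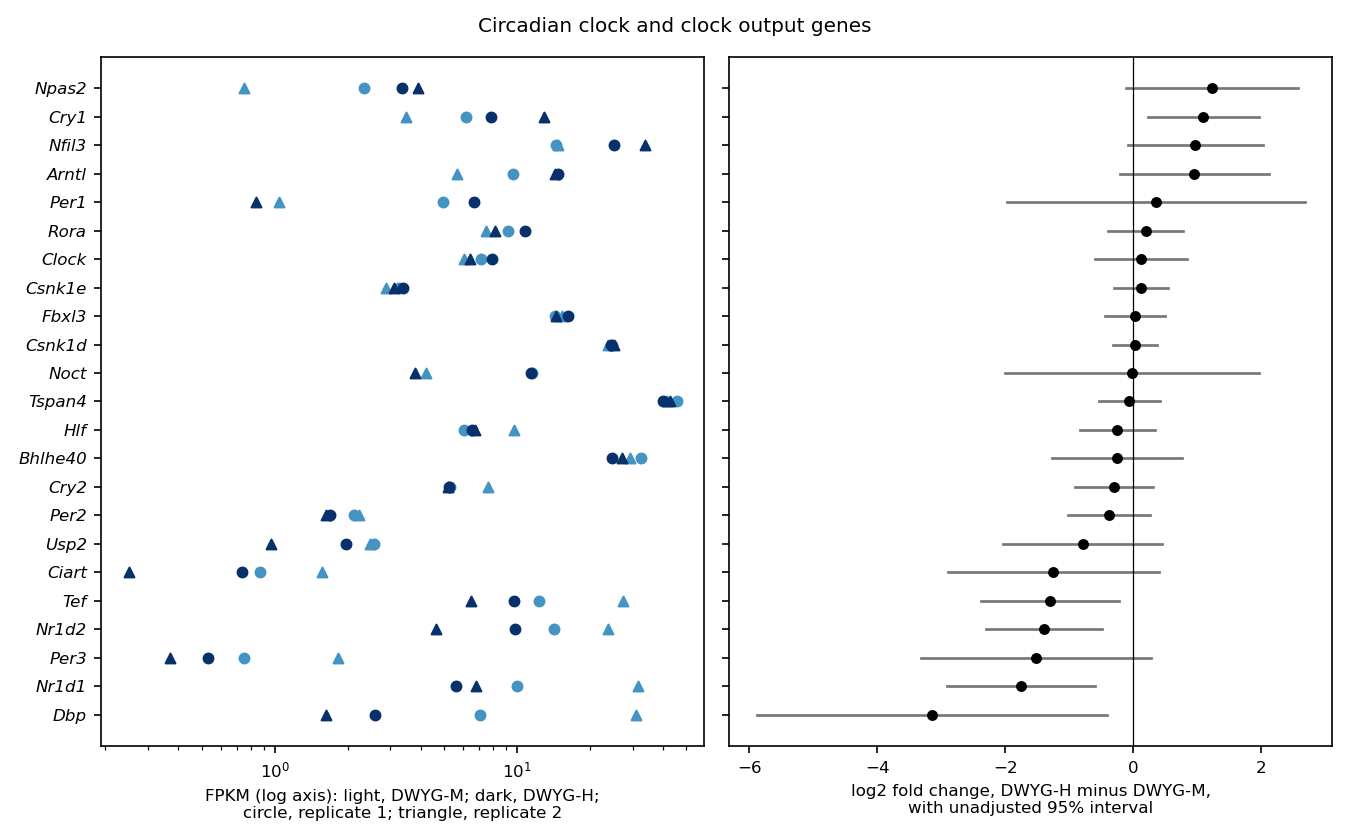
Left, FPKM (log axis) of the circadian clock and clock output genes reported in the 2 DWYG-M libraries (light) and the 2 DWYG-H libraries (dark), circles for replicate 1 and triangles for replicate 2; right, log2 fold change of DWYG-H over DWYG-M with its unadjusted 95% interval. Nr1d1, Nr1d2, Tef and Dbp have intervals below 0 and Cry1 above 0, and none passed after adjustment over all genes.

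Promoters of 4 clock genes are shown, picked because they held motif matches while the genes' log2 fold changes lie on both sides of 0. The entries of Nr1d1, Dbp and Arntl held no match to any motif searched. Each is the 250 bases before the start in GRCm38.p6, from RefSeq, and capitals mark motif matches on either strand. Nr1d2 (chr14:18239107-18239356, - strand) holds AGGTCA, the core of the REV-ERB element, but not the full element. Cry1 (chr10:85185055-85185304, - strand) holds 1 E-box, CACGTG, the site of BMAL1 and CLOCK. Ciart (chr3:95882229-95882478, - strand) holds 3 E-boxes, and Per3 (chr4:151044666-151044915, - strand) holds 2 D-boxes, TTANGTAA.
Nr1d2: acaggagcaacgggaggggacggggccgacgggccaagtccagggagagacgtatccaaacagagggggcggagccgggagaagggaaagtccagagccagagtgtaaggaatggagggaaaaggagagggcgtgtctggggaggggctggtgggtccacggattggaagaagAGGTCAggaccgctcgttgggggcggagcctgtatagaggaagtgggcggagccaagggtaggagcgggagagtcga
Cry1: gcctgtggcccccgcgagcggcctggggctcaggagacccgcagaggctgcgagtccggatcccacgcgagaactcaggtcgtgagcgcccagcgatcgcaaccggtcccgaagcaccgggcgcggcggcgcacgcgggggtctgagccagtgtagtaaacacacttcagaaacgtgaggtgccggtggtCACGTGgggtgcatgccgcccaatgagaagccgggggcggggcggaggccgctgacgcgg
Ciart: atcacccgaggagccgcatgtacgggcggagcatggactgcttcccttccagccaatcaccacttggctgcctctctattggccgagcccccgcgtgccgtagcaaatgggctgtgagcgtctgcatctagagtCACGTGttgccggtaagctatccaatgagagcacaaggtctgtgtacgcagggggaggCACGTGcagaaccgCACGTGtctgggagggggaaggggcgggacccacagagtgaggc
Per3: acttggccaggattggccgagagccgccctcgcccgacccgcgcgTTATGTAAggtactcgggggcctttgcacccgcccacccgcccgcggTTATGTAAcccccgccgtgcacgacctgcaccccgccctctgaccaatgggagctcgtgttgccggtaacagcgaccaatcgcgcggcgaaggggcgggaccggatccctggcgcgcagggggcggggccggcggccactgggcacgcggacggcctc
The E-box was found in 6 of the 28 promoter entries of 19 clock genes (21.4%) and in 6.02% of all 32851 promoters. AGGTCA was found in 4 of the 28 (14.3%) and 14% of all, and the D-box in 1 of the 28 (3.57%) and 2.06% of all. The full REV-ERB element, which contains AGGTCA, was in 0 of the 28 and 0.177% of all, and the PPAR element, a direct repeat of AGGTCA, in 0 of the 28 and 0.0335% of all. Cry1, higher in DWYG-H, and Ciart, lower, both held E-boxes.

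The immune genes with the largest fold changes came from 1 liver, DWYG-H 2. Cxcl9, an interferon-gamma-induced chemokine gene that attracts T cells, had 4.02 and 3.73 FPKM in DWYG-M, 4.7 in DWYG-H 1 and 89.9 in DWYG-H 2. Cxcl10, a gene of the same family, had 4.04, 4.3, 3.96 and 36.1 in the same order. Ubd, a ubiquitin-like modifier induced by interferon and TNF, had 5.23, 4.27, 8.36 and 64.1. The log2 fold change of Cxcl9 was 3.59 ± 1.06 with all libraries and 0.29 without DWYG-H 2. That of Ubd was 2.93 ± 0.79 and 0.84. Without DWYG-H 1, both passed the edgeR test, Cxcl9 at 4.52 (adjusted p = 0.0152) and Ubd at 3.75 (adjusted p = 0.0312). The lone DWYG-H liver was there assumed to vary like livers of the other groups.

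Antigen presentation and lymphocyte markers were highest in the same liver. All 11 tested MHC class II genes were highest in DWYG-H 2, beside 27.1% of all genes. The list's median was 0.66, and without DWYG-H 2 it was -0.19. Cd74, the invariant chain, had 130 and 148 FPKM in DWYG-M against 120 and 329 in DWYG-H. Ciita, the master activator of this set, had 0.53 and 0.82 against 0.74 and 1.73. H2-DMa, H2-Ob and Ctss (cathepsin S) were the other members with an unadjusted p under 0.05, at 0.70, 0.82 and 0.46 on the log2 scale. Of 22 T and NK lymphocyte markers only 8 reached the FPKM limit. Their median was 0.90 with all libraries and -0.12 without DWYG-H 2.

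The 21 lymphocyte markers in the table summed to 34.7 and 24.2 FPKM in DWYG-M and to 24.1 and 84.7 in DWYG-H. Nkg7, a granule gene of cytotoxic cells, had 1.82 and 1.26 against 2.03 and 8.59, and Klrk1 had 0.73 and 0.76 against 0.83 and 2.11. The defining marker Cd3e was at 0.43, 0.24, 0.67 and 3.15. Lymphocyte markers were thus higher in DWYG-H 2 than in the other 3 DWYG livers, and the part of these cells in the chemokine and MHC values was not tested. The interferon list of 45 genes had a median of 0.13 (0.02 without DWYG-H 2), and its members Gbp2 (2.22 and 2.6 against 2.55 and 21.4) and Gbp5 (0.64 and 0.88 against 0.69 and 4.21) showed the same single liver.

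Some chemokine genes were higher in both DWYG-H livers. Of 31 tested chemokine and cytokine genes, 13 were above and 2 below the DWYG-M livers in both, the median was 0.52, and it was 0.17 without DWYG-H 2. Ccl2, which recruits monocytes, had 1.15 and 1.51 FPKM in DWYG-M against 2.67 and 6.48 in DWYG-H (log2 fold change 1.79 ± 0.51, and 1.02 without DWYG-H 2). Ccl6 had 15.1 and 12.1 against 21.7 and 20.3, Cxcl16 had 9.26 and 10.3 against 11.8 and 14.3, and Cxcl5 had 0.33 and 0.12 against 0.48 and 1.09. Of 30 acute phase genes, 10 were above and 2 below in both (median 0.17, and 0.38 without DWYG-M 1). Saa1, a serum amyloid A gene, had 122 and 88.5 against 337 and 969, but 2917 and 162 in the model livers. Saa2, its near-identical copy, had 50.3 and 47.6 against 158 and 662. Serpina3g had 8.55 and 6.63 against 9.89 and 12.4. The doses overlapped for Hamp (hepcidin), with 676 and 756 against 746 and 2485, and for Lcn2, with 453 and 286 against 959 and 446. Leaving out 1 library brought their log2 fold changes from 1.25 and 0.94 to as low as 0.10 and 0.28.

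Proliferation genes were highest in the other high-dose liver, DWYG-H 1. Of 47 cell cycle genes, 43 had a higher point estimate in DWYG-H, beside 49.6% of all genes. In both DWYG-H livers 8 were above both DWYG-M livers, a share not far from the 13.1% of all genes, and 1 was below. DWYG-H 1 was highest in 39 of the 47 and DWYG-M 2 lowest in 40, beside 22.8% and 26.4% of all genes. Mki67 had 1.45 and 0.84 FPKM in DWYG-M against 3.84 and 1.6 in DWYG-H, against 4.23 and 3.1 in the model. Birc5 (survivin) had 4.32 and 2.71 against 8.3 and 4.94, and Kif23, a kinesin of cytokinesis, 0.61 and 0.44 against 1.38 and 0.79. The median of the list was 0.53, and -0.04 without DWYG-H 1.

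Srebf1 and Fasn overlapped between the doses and were higher in DWYG-H 2 than in the other DWYG livers. Srebf1, the lipogenic activator, had 51.4 and 42.4 FPKM in DWYG-M against 37.3 and 127 in DWYG-H, and Fasn (fatty acid synthase) 37.7 and 33.2 against 22.3 and 92.5. Without DWYG-H 2 their log2 fold changes turned to -0.32 and -0.65. Pnpla3, a lipid droplet protein gene, was higher in both, at 1.31 and 0.82 against 3.03 and 2.6. Of 39 lipogenic genes, 7 were above and 0 below in both livers (median 0.26, and 0.08 without DWYG-H 2). Of 42 genes of fatty acid oxidation, 2 were above and 4 below (median -0.14). DWYG-H 2 was lowest in 31 of the 42, beside 22.4% of all genes. The median of the 42 turned to 0.11 without DWYG-H 2 and 0.03 without DWYG-M 2, and was -0.41 without DWYG-H 1. Of the 6 tested Cyp4a genes, only Cyp4a12a and Cyp4a12b separated the doses. The median of the 6 was -0.82, with -0.30 without DWYG-M 2, -0.38 without DWYG-H 2 and -1.23 without DWYG-H 1. Ppard, the gene of PPAR delta, had 4.71 and 2.12 in DWYG-M against 6.33 and 11.5 in DWYG-H (log2 fold change 1.38 ± 0.38, adjusted p = 1, and 0.91 without DWYG-H 2).

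**Figure D4:**
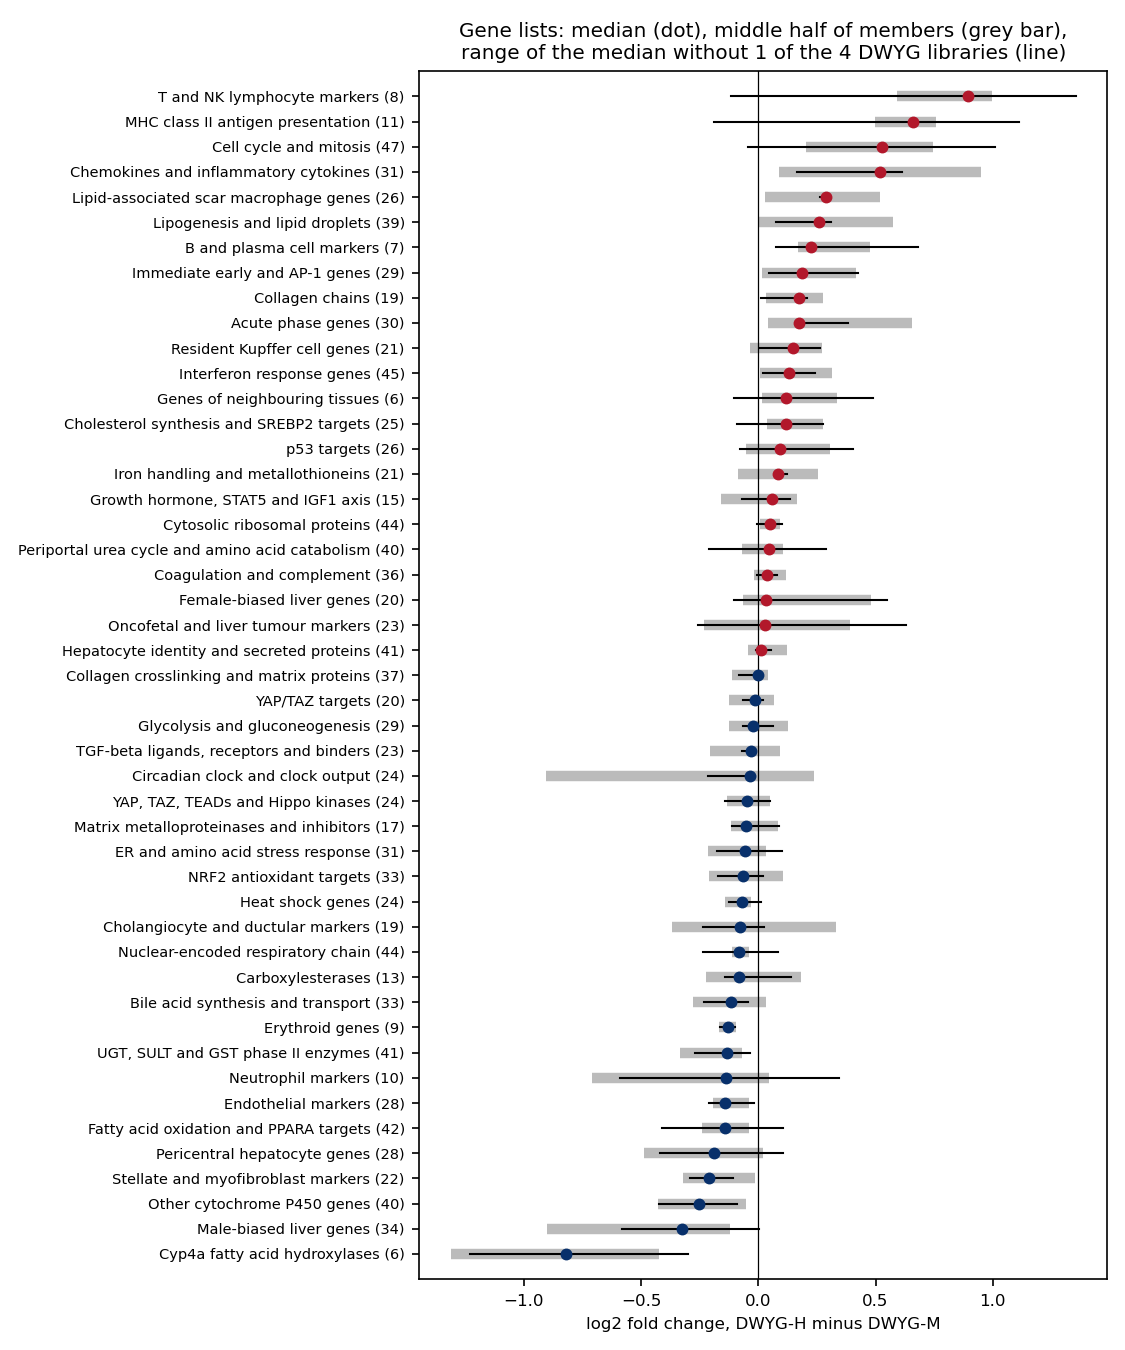
Median log2 fold change of DWYG-H over DWYG-M for 47 gene lists (dots, red above and blue below 0), with the range from the 25th to the 75th percentile of the members (grey bars) and the range of the median when 1 of the 4 DWYG libraries was left out (black lines); numbers in brackets are genes tested. The black line crosses 0 for lists such as MHC class II (-0.19 to 1.11) and cell cycle (-0.04 to 1.01), and is short for scar macrophage genes (0.26 to 0.30).

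Scar, stellate cell and vessel genes gave smaller values. Of 19 collagen chain genes, 4 were above and 1 below in both DWYG-H livers (median 0.18, and 0.01 without DWYG-H 2). Col1a1, the main fibrillar collagen, had 6.57 and 7.28 FPKM in DWYG-M against 6.92 and 12.6 in DWYG-H, so the doses overlapped. Its log2 fold change was 0.49 ± 0.44, and 0.01 without DWYG-H 2. Col14a1 was the member below in both, at 13.1 and 15 against 10.8 and 10.7, and Col4a3 was among those above, at 2.01 and 0.88 against 2.44 and 2.1. Of 22 stellate cell and myofibroblast genes, 6 were below and 1 above (median -0.21, and -0.11 without DWYG-M 2), among them Dpt (dermatopontin) with 10.2 and 14.3 against 6.96 and 8.91 and Colec11 with 33.9 and 42.7 against 30.5 and 29.8. Acta2, the smooth muscle actin of activated stellate cells, had 8.72 and 5.03 against 5.37 and 6.02.

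Endothelial markers had 0 above and 8 below of 28 in both DWYG-H livers, with a median of -0.14. DWYG-H 2 was lowest in 16 of the 28, beside 22.4% of all genes, and without that liver the median was -0.02. The epithelial factor Ehf, from the cholangiocyte list of 19 genes (median -0.08), had 0.96 and 0.8 FPKM against 0.56 and 0.51 (log2 fold change -0.75 ± 0.23, adjusted p = 1). Ntn4, a netrin of basement membranes, had 5.27 and 5.44 against 3.93 and 3.04.

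YAP1, TAZ and the tumour markers AFP and glypican-3 differed between the doses by less than their error at the RNA level. Yap1 had 22.9 and 21.9 FPKM in DWYG-M against 21.9 and 22 in DWYG-H (log2 fold change -0.03 ± 0.14, 95% interval -0.36 to 0.29). Wwtr1, which encodes TAZ, had 7.88 and 7.99 against 7.77 and 6.38 (-0.16 ± 0.17). The targets varied between livers of a dose. Ccn1 had 3.65 and 5.63 against 3.29 and 5.56, Ccn2 had 13.7 and 2.58 against 7.34 and 4.42, and Ankrd1 had 1.14 and 1.27 against 1.04 and 1.42. Over 20 YAP and TAZ targets the median was -0.02, with 1 above (Amotl2, 5.81 and 6.35 against 7.72 and 7.57) and 2 below. F3, tissue factor, was among the latter at 1.76 and 2.61 against 1.27 and 1.66. Amotl1, an angiomotin that binds YAP, had 1.88 and 1.8 against 1.57 and 1.38.

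Afp, the oncofetal alpha-fetoprotein gene, had 217 and 111 FPKM in DWYG-M against 158 and 111 in DWYG-H, with a log2 fold change of -0.28 ± 0.62. Gpc3 (glypican-3) had 67.9 and 38.2 against 72.5 and 46.6 (0.17 ± 0.37). Both genes were far lower in the controls, at 0.28 and 0.23 for Afp and 0.54 and 0.18 for Gpc3. The intervals were wide, from -1.70 to 1.14 for Afp and from -0.68 to 1.02 for Gpc3, so a 2-fold difference in either direction lay within the interval of Afp.

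Other genes with small p-values are described singly. Xlr3a, a member of an X-linked family of close copies, had 0.32 and 0.54 FPKM in DWYG-M against 2.78 and 9.51 in DWYG-H, with 2.38 and 1.38 in the model and 4.88 and 5.69 in the controls. Its log2 fold change was 3.80 ± 0.64 (adjusted p = 0.835). Pnrc1, a nuclear receptor coregulator, had 36.6 and 34.8 against 59.4 and 65 (0.81 ± 0.22). Sik1, a kinase gene induced by cAMP, had 5.35 and 4.67 against 7.4 and 7.31. Ppp1ccb had 6.33 and 7.32 against 12.7 and 12.5. The adjusted p of the last 3 was 1.

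The comparison of model and control shares no library with that of the doses, so both were read side by side. Both came from the same fit and share its estimates of each gene's spread. A gene of low spread can thus have a small p in both, and the overlap of small p-values is a description only. Of the 193 genes with an unadjusted p under 0.05 between the doses, 112 (58%) were called between model and control. The share over all genes tested was 22.2%, and the 112 were 4.34% of the genes called between model and control. In 78 both differences were upward and in 19 both downward, while 2 were higher in DWYG-H and lower in the model, and 13 the reverse. Of the 1756 genes higher in the model (15.1% of those tested), 388 (22.1%) were above in both DWYG-H livers and 130 (7.4%) below, with a median of 0.09. Of the 826 genes lower in the model (7.12%), 25 (3.03%) were above and 183 (22.2%) below, with a median of -0.11.

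This ordering rested on DWYG-M 2. Per library, genes higher in the model lay a median of 1.11 log2 units above the control mean in DWYG-M 1 and 0.89 in DWYG-M 2, against 1.12 and 1.09 in the DWYG-H livers and 1.48 and 1.70 in the model. Genes lower in the model lay at -0.55 and -0.28 in DWYG-M, -0.52 and -0.46 in DWYG-H and -0.75 and -0.92 in the model. DWYG-M 1 and both DWYG-H livers were close together, and DWYG-M 2 was nearest to the controls. Without DWYG-M 2 the medians of the dose difference were -0.02 and 0.07, the reverse of those with all libraries, and without DWYG-M 1 they were 0.28 and -0.27. DWYG-M 2 also had the highest level of the 4 livers in 37 of 44 respiratory chain genes, 21 of 28 pericentral and 22 of 40 periportal hepatocyte genes, beside 26.7% of all genes.

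**Figure D5:**
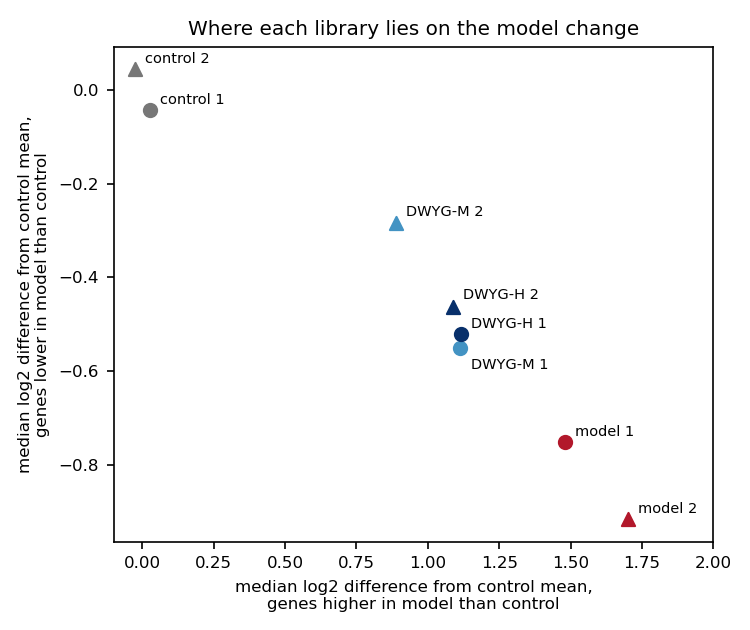
Median log2 difference of each library from the control mean over genes called higher (x axis) and lower (y axis) in model than control; circles are replicate 1 and triangles replicate 2. DWYG-M 1 (1.11), DWYG-H 1 (1.12) and DWYG-H 2 (1.09) lie together on the x axis, and DWYG-M 2 (0.89) lies nearer to the controls.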

How the data were processed

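Liver RNA of 8 mice was sequenced, and the groups were taken from the sample titles. Libraries were made from 2 µg of RNA with a SMART-Seq mRNA kit, per the labels' protocols. Per the submitters' processing notes, reads were placed on GRCm39. Which aligner, counting tool and annotation were used, and whether strand was used, is not given in the sources used here. The deposited table holds estimated counts per gene, made by the authors from aligned reads. 89.8% to 91.5% of them per library were whole within 0.005 and the rest had fractions. These expected counts were rounded here. Levels are the deposited FPKM values, and the deposited TPM values served an alternative. A further 8 columns of normalized counts and 16 of group averages were not used.

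The test was edgeR 4.0.16 (R 4.3.3), glmQLFit and glmQLFTest with TMM, in 1 model of 4 groups over 8 libraries with 4 residual degrees of freedom. The scripts were tested on simulated data. Adjustment by Benjamini-Hochberg ran over all 11606 genes, with calls at an adjusted p under 0.05. Intervals are unadjusted. With 2 livers a group, the p-values set a difference against a spread between livers estimated over all 4 groups and moderated over genes. Alternatives were DESeq2 1.42.0, limma 3.58.1 on log2 of TPM + 1, FPKM + 1 and FPKM + 0.1, other scalings and filters, the 4 DWYG libraries alone, a replicate term, and leaving out each library.

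The members and the 47 gene lists were chosen with earlier results of these data known, and no list was tested as a set. Named were the 10 genes of each direction with the smallest p, an FPKM mean of at least 5 at either dose and no overlap of the doses (predicted genes left out), a fixed set of 12 (Cyp4a12a, Mmp12, Nr1d1, Yap1, Wwtr1, Ccn1, Ccn2, Ankrd1, Afp, Gpc3, Col1a1 and Acta2), and in each list described the 2 members with the smallest p. All tested clock genes could be named. Other genes were named after their values were seen. Some genes that the rule selects are not reported here. Promoters are from RefSeq (GRCm38.p6), matched by gene ID, and show sequence only, since the counts use another build.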

Additional observations from a re-analysis of the deposited data

Results flagged for a closer look

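Of 98 genes examined, 4 had both DWYG-M livers on one side of both model livers and both DWYG-H livers on the other. Many of the 98 were chosen for small p-values or for separating the doses. The same count was not made over all genes tested, so 4 of 98 cannot be read as more than other genes would give. Xlr3a (log2 fold change DWYG-H minus DWYG-M 3.80) and Ppp1ccb (0.89) were below the model in DWYG-M and above it in DWYG-H. H2-Ob (0.82), an MHC class II gene, stood in the same order at 0.83 and 0.78 FPKM in DWYG-M, 0.98 and 0.87 in the model and 1.33 and 1.51 in DWYG-H. Per2 (-0.38) stood in the opposite order, above the model in DWYG-M and below it in DWYG-H. The difference of each dose from the model was not tested apart from the difference between the doses, which passed the edgeR test for none of the 4.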

How the results depend on the processing

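The count of genes called by edgeR between the doses was 0 in the fit reported, in the other scalings, filters and limma fits, and with the 4 DWYG libraries alone. DESeq2 called 5, and leaving out 1 library gave between 0 and 2. With the replicate number as a block the count was 0 and the medians of genes higher and lower in the model were 0.09 and -0.10; the numbers mark no shared animal, and deviations of same-numbered DWYG-M and DWYG-H libraries correlated at 0.26 (-0.14 to 0.20 for other group pairs). Leaving out 1 library moved these medians from -0.021 to 0.283 and from -0.267 to 0.067, and turned both without DWYG-M 2. Genes with an unadjusted p under 0.05 numbered 220 higher and 101 lower without a filter, 70 and 31 at an FPKM of 5, 88 and 63 with limma on log2(FPKM + 0.1), and 199 and 108 with the 4 DWYG libraries alone, against 133 and 60 in the fit reported. Leaving out 1 library gave 66 (without DWYG-M 2) to 226 (without DWYG-H 1) higher and 54 (without DWYG-M 2) to 94 (without model 2) lower. Of 98 genes, 12 turned direction when a library was left out, with ranges of -0.63 to 0.43 for Acta2, -0.68 to 0.28 for Afp, -0.19 to 0.23 for Ankrd1, -0.48 to 0.28 for Ccn1, -1.22 to 1.19 for Ccn2, -0.19 to 1.23 for Cd74, -0.051 to 3.11 for Cxcl10, -0.65 to 1.37 for Fasn, -0.14 to 2.44 for Gbp5, -0.20 to 0.64 for Gpc3, -1.81 to 1.88 for Per1 and -0.32 to 1.42 for Srebf1. Of 47 list medians, 18 kept their sign in all 18 settings. The cause was not tested. Over all settings, the median log2 fold change of all genes lay between -0.011 and 0.015. With 2 livers a dose, differences under about 1.41-fold were mostly not detectable even before adjustment, and far larger ones were not called by edgeR after it.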
